A study of Mus musculus with 9 samples.

Results

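ADAMTS10 is a secreted protein of the ADAMTS metalloprotease family that binds fibrillin, the main protein of extracellular microfibrils, and the genes described here are Adamts10 and 9 others around it, 10 of the 37725 genes in the count matrix. The others are Adamts6, the nearest relative of Adamts10, Adamts17, a further protease of the family, Adamtsl4, an ADAMTS-like protein without a protease domain, Fbn1 and Fbn2, which encode fibrillins, Ltbp2, a fibrillin-binding protein related to them, Fbln5 and Efemp1, which encode fibulins, and Timp3, an inhibitor of metalloproteases. All 10 were found in the matrix by name. Adamts10 was chosen by its lower level in RPE cells of dKO mice in this same experiment, so its difference between dKO and control RPE cells, and its RPE level against other cell types, are given as descriptions without a test. The other genes were taken for their known relation to ADAMTS10, to fibrillin or to Bruch's membrane.

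Bruch's membrane is the thin sheet of extracellular matrix between the retinal pigment epithelium (RPE) and the choroid, and it is built from the basement membranes of the RPE and of the choroidal capillaries, collagen layers and a central elastic layer. Fibrillin microfibrils form the scaffold on which elastin is laid down, and they also make up the zonule that holds the lens. In humans, variants of ADAMTS10, ADAMTS17, FBN1 and LTBP2 are known from syndromes with a displaced lens, ADAMTSL4 variants from isolated displacement of the lens, TIMP3 variants from Sorsby fundus dystrophy and an EFEMP1 variant from Doyne honeycomb retinal dystrophy, and both dystrophies show deposits at or in Bruch's membrane.

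By the labels, the mice all carried RPE65-ERT2-Cre, a tamoxifen-inducible recombinase driven in the RPE, together with floxed alleles of miR-204 and miR-211. The 5 dKO mice received tamoxifen at 75 mg/kg on 5 days from postnatal day 28 and the 4 control mice received corn oil, so deletion and exposure to tamoxifen cannot be told apart under this design. For its phenotyping the study's text names Cre-negative mice given tamoxifen as controls, which differs from the labels, and the labels are followed here. Tissue was collected 6 months after induction, the retinas of a mouse were pooled, and single cells were labelled by split-pool barcoding. Mir204 and Mir211 are not rows of the matrix analysed here, and the loss of the microRNAs was therefore not checked by count.

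The 5p arms of miR-204 and miR-211, whose genes the recombinase is meant to delete in the RPE, share a seed, the bases at positions 2 to 8 that pair with target RNAs. They are printed because this seed was searched for in the 10 genes. The 3p arms have other seeds, which differ from each other and were not searched for here. Seeds are in capitals and the sequences are those of RefSeq (GRCm38.p6).
mmu-miR-204-5p: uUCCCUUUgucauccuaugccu
mmu-miR-211-5p: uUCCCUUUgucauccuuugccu

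Matches to this seed were looked for on the transcribed strand of the annotated 3′-UTRs of the 10 genes (GENCODE M39, GRCm39), as 8mer (AAAGGGAA), as 7mer-m8 (AAAGGGA without the 8mer) and as 7mer-A1 (AAGGGAA without the 8mer). An 8mer or 7mer-m8 match was present in 3 of the 10 genes, Adamts10, Fbln5 and Fbn2, beside 21.3% of all 20955 genes with an annotated 3′-UTR, and an 8mer in 2 of 10 beside 9.39%. Adamts10 (chr17:33742987-33772758, plus strand) had 2 8mer matches and Fbln5 (chr12:101712556-101785429, minus strand) had 1 7mer-m8 match. Fbn2 had 1 8mer match, in an exon of its longest coding transcript, and 2 7mer-m8 matches outside it, and its sequence is not printed here. Adamts10 also had 1 7mer-A1 match. The windows below show the 8mer matches of Adamts10 and the match of Fbln5 with the match in capitals.
Adamts10, chr17:33749026-33749033, plus strand: gtgtggaaaAAAGGGAAaagaagaaa
Adamts10, chr17:33750898-33750905, plus strand: aaactgggaAAAGGGAAgaataaaaa
Fbln5, chr12:101714931-101714937, minus strand: agcttggagAAAGGGAcaaatccct

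The first Adamts10 match lies in the 3′-UTR of 1 of 10 annotated transcripts and the second in that of 2 of 10, and neither lies in an exon of the longest coding transcript. The Fbln5 match lies in the 3′-UTR of 4 of 4 transcripts. Adamts17 had only 7mer-A1 matches, and no match of these letters was found in the 3′-UTRs of Adamts6, Adamtsl4, Fbn1, Ltbp2, Timp3 or Efemp1. A match is a description of the letters and was not tested for binding.

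The matrix holds raw counts of unique molecular identifiers (UMIs), 1 for each captured RNA molecule, for 31089 cells, with 15079143 to 66528160 UMIs per mouse. Cells were assigned to 14 types by UMIs of marker genes that include none of the 10 genes, which placed 28026 cells. Levels are given as CPM, the UMIs of a gene per 1000000 UMIs summed over the cells of a type, for each mouse with at least 10 cells of that type. There were 317 RPE cells, and Rpe65, the isomerase of the visual cycle, stood at 5140 CPM and was seen in 98.1% of them, while the listed marker Best1 had only 2 UMIs. The 7 mice compared for RPE had 54, 43 and 53 RPE cells (control mice 1, 2 and 3) and 62, 12, 46 and 44 RPE cells (dKO mice 6, 7, 8 and 9). Control mouse 4 had no RPE cell and dKO mouse 5 had 3. Some libraries stood apart. Mice 4, 5 and 7 had 404 to 424 CPM of Y-linked RNA and 35.4 to 51.8 CPM of Xist, had 71.4% to 86.9% rods against 32.8% to 46.3% in the other mice, and gave few or no RPE and fibroblast-like cells. Of the 12 RPE cells of dKO mouse 7, 7 had Xist and no Y-linked UMI, unlike the mouse as a whole, so these cells may not belong to that mouse, and every RPE value of mouse 7 carries this doubt. Some RPE cells of the mice rich in Xist had a Y-linked UMI. They were 11 of 54, 2 of 43 and 5 of 53 in control mice 1, 2 and 3. In dKO mice 6, 8 and 9 they were 8 of 62, 8 of 46 and 1 of 44. The source of these UMIs was not tested. A single animal number stands for both mouse 6 and mouse 7 in the labels, and they were kept as separate mice here. No cell barcode was shared between mice.

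Of the 10631 Adamts10 UMIs, 2.96% lay in RPE cells, which held 2.88% of the UMIs of all genes. Bipolar cells had 22.8% of the Adamts10 UMIs against 12.5% of all UMIs, amacrine cells 15.1% against 19.0%, Müller glia 13.6% against 8.38%, endothelial cells 7.62% against 1.22% and fibroblast-like cells 6.60% against 0.859%. Its level per type ran in another order, because the types differ in number and in RNA content. It was highest in fibroblast-like cells, at 200 ± 41.5 CPM (SD, n = 6 mice), and in endothelial cells, at 165 ± 31.8 CPM (SD, n = 7), and these values overlapped between mice.

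Among types with at least 6 mice, pericytes followed with 65.1 ± 19.6 CPM (SD, n = 6), bipolar cells with 47.9 ± 7.34 CPM (SD, n = 9), Müller glia with 42.9 ± 8.14 CPM (SD, n = 9) and RPE cells with 22.5 ± 14.6 CPM (SD, n = 7). The 43 astrocytes, summed over mice because only 1 mouse had 10 of them, stood at 71.0 CPM. The spread of pericytes, bipolar cells and Müller glia overlapped, and so did that of RPE, amacrine cells at 22.0 ± 7.02 CPM (SD, n = 9) and ganglion cells at 20.1 ± 4.72 CPM (SD, n = 8). The RPE mean joins control and dKO mice and takes dKO mouse 7, without an Adamts10 UMI, as 0 CPM. In RPE, control mice 1, 2 and 3 alone had 31.4, 37.5 and 36.6 CPM beside 24.8, 19.0 and 14.4 CPM in amacrine cells. Cones, rods and horizontal cells were lowest, with 6.70 ± 4.62, 3.34 ± 0.966 and 2.03 ± 1.67 CPM (SD, n = 9, 9 and 7). The level over all rods fell from 3.51 to 2.11 CPM when the 5% of cells with the most UMIs were left out. An Adamts10 UMI was seen in 40.4% of RPE cells and in 1.603% of rods, with median depths of 17629 and 4689 UMIs per cell.

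**Figure D1:**
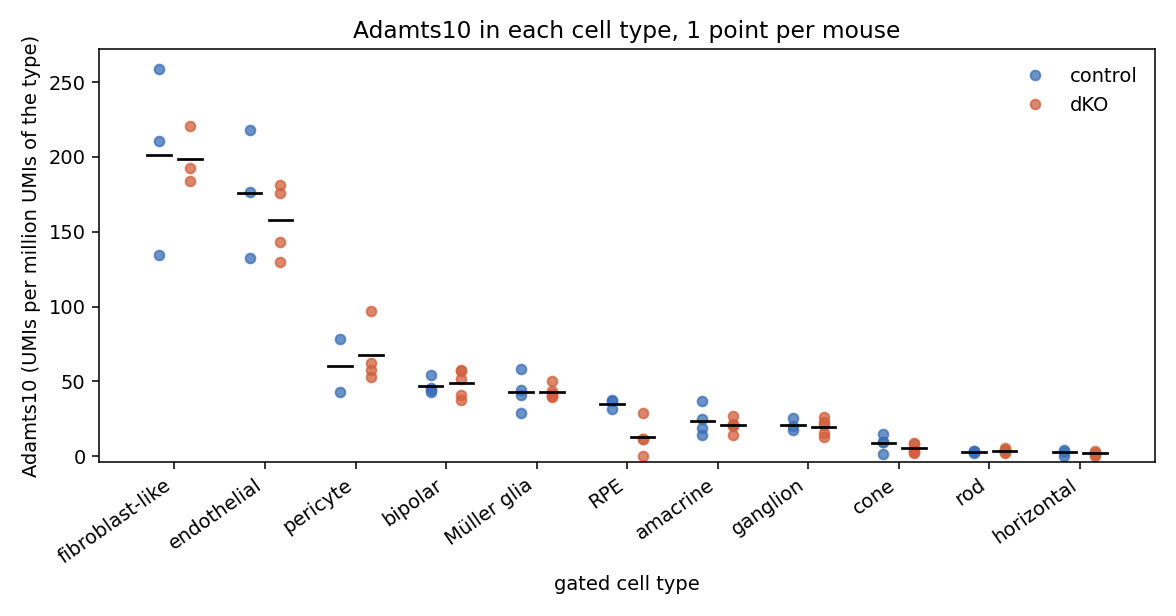
Adamts10 level (CPM) in 11 gated cell types, 1 point per mouse with at least 10 cells of the type, control in blue and dKO in orange, black lines for group means. Fibroblast-like and endothelial cells stand between 130 and 259 CPM in every mouse. As counted, the RPE points of control mice sit above those of dKO mice. Groups did not overlap for 5.75% of the 9643 genes tested in RPE. The RPE point of dKO mouse 7 is 0 UMIs, which allow up to 79.6 CPM.

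Within bipolar cells Adamts10 was uneven. It stood at 23.7 CPM in the 935 cells with high Prkca, the marker of rod bipolar cells, at 55.6 CPM in the 1248 cells low in Prkca with Grm6, the receptor of ON bipolar cells, and at 70.0 CPM in the 941 cells low in Prkca without Grm6. In RPE the 315 Adamts10 UMIs lay in 128 of 317 cells, with up to 11 UMIs in 1 cell. The spread between cells was not tested against counting error.

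Types were compared within the same mice by edgeR's quasi-likelihood fit with the mouse as a block. For Adamts10 the RPE side of this fit includes the dKO RPE values for whose low level the gene was chosen, so the fitted differences are given without a test. The other genes are tested between types where they passed the filter on low counts in each of both types alone. A gene that passed only through the type where it is high had to differ, so its fold is given as a description and no test. The fitted level was 7.14-fold higher in fibroblast-like cells than in RPE (log2 difference of RPE -2.84, SE 0.24, RPE lower in 6 of 6 mice), 5.61-fold higher in endothelial cells (-2.49, SE 0.23, lower in 7 of 7 mice), 2.17-fold higher in pericytes (-1.12, SE 0.36, lower in 6 of 6 mice) and 1.45-fold higher in Müller glia (-0.54, SE 0.19, lower in 6 of 7 mice, the 0 UMIs of dKO mouse 7 leaving its direction undetermined). Without control mouse 3 the log2 difference from pericytes was -1.72. In control mice 1, 2 and 3 alone, Müller glia had 44.0, 58.5 and 40.8 CPM beside 31.4, 37.5 and 36.6 CPM in RPE. Folds of these comparisons are those of the fit and differ from ratios of the means above.

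In RPE cells Adamts10 stood at 31.4, 37.5 and 36.6 CPM in control mice 1, 2 and 3, from 85, 39 and 85 UMIs. In dKO mice 6, 8 and 9 it stood at 28.6, 11.6 and 11.6 CPM, from 77, 18 and 11 UMIs. No UMI was counted in dKO mouse 7, whose 12 cells held 37697 UMIs in all, so that a count of 0 there allows a level of up to 79.6 CPM. As counted, all 4 dKO values were below the lowest control value, with dKO mouse 6 close under it and mouse 7 not placed by its 0 UMIs. The means were 35.1 ± 3.30 CPM (SD, n = 3) and 12.95 ± 11.8 CPM (SD, n = 4). The dKO mean takes mouse 7 as 0 CPM, although its count does not place it, and so depends on that value. Control and dKO values did not overlap for 5.75% of the 9643 genes tested in RPE, the background for such a pattern.

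The fitted log2 difference of dKO from control was -0.93 (SE 0.32), a level 52.6% of control. Without dKO mouse 7 it was -0.90, and without dKO mouse 6, the dKO mouse nearest to the controls, it was -1.58. It was -1.30 when the 5% of cells with the most UMIs were left out. The sums per mouse do not separate fewer cells with the RNA from less RNA per cell. Marker RNA of other types that are rich in Adamts10 was low in RPE cells of both groups. The 6 fibroblast-like markers summed to 0.00301% to 0.00461% of UMIs in control and 0.00265% to 0.00642% in dKO RPE cells, with 2 to 5 of the 6 at 0 in a mouse, and the 6 endothelial markers to 0.00121% to 0.00203% and 0.00161% to 0.0106%, with 1 to 5 of the 6 at 0. Their part in the difference was not tested.

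In the other types the Adamts10 values of the groups overlapped. Fibroblast-like cells had 201 ± 62.7 CPM in control and 199 ± 19.3 CPM in dKO mice (SD, n = 3 and 3), endothelial cells 176 ± 42.7 and 158 ± 24.9 CPM (SD, n = 3 and 4), bipolar cells 46.6 ± 5.02 and 48.9 ± 9.28 CPM (SD, n = 4 and 5) and Müller glia 43.0 ± 12.3 and 42.8 ± 4.36 CPM (SD, n = 4 and 5). The gene did not pass edgeR's test in any of these 4 types, with log2 differences from -0.18 (SE 0.22) in endothelial cells to 0.06 (SE 0.14) in bipolar cells. It did not pass in rods, cones, amacrine cells or pericytes either, with log2 differences from -0.73 (SE 0.41) in cones to 0.31 (SE 0.25) in rods. Whether the difference in RPE differs from that in the other types was not tested.

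**Figure D2:**
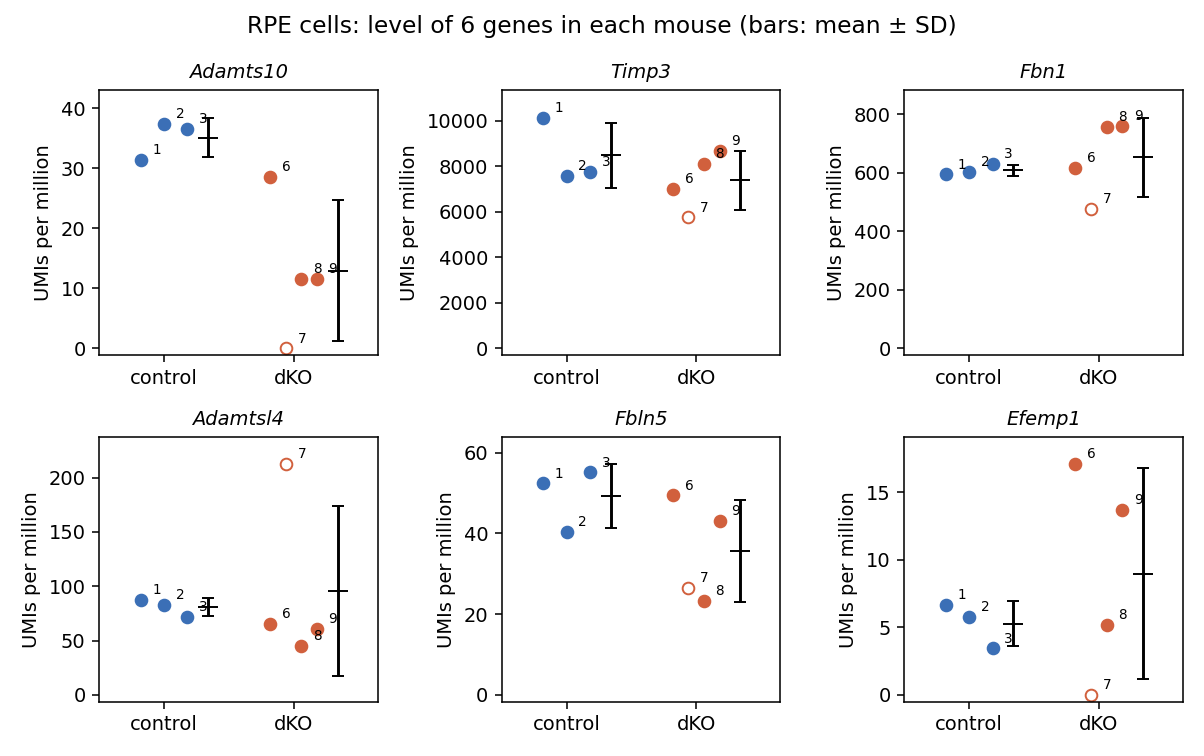
Level in RPE cells (CPM) of the 6 genes that passed the filter there, by mouse number, with the mean and SD of each group. The open symbol is dKO mouse 7 with 12 cells. As counted, the control and dKO points of Adamts10, the gene chosen for its lower dKO level, do not overlap. Such a lack of overlap was seen for 5.75% of the 9643 genes tested in RPE. The 0 Adamts10 UMIs of mouse 7 allow up to 79.6 CPM and do not place it. The points of the other 5 genes overlap.

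Among the relatives of Adamts10, Adamts17 RNA was highest in Müller glia, the radial glia of the retina, at 135 ± 17.5 CPM (SD, n = 9), and 43.3% of its UMIs lay there. Pericytes had 66.2 ± 21.2 CPM (SD, n = 6) and RPE cells 3.33 ± 2.51 CPM (SD, n = 7). It passed the filter in Müller glia and pericytes but not in RPE, where 49 UMIs were counted, or in endothelial cells. The fitted level was 26.5-fold higher in Müller glia than in RPE (higher in 7 of 7 mice), 12.6-fold higher in pericytes than in RPE (higher in 5 of 6 mice, with 1 undetermined) and 4.71-fold higher in pericytes than in endothelial cells (higher in 6 of 6 mice). In pericytes the 2 control mice had 78.4 and 90.1 CPM and the 4 dKO mice 32.0 to 73.8 CPM. These did not overlap, as for 12.2% of the 3868 genes tested in pericytes, and the log2 difference of -0.60 (SE 0.48) did not pass (adjusted p = 0.998).

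Adamts6 RNA was led by other cells again. Rod bipolar cells with high Prkca had 107 CPM, which came to 25.5% of its UMIs, and bipolar cells low in Prkca had 10.4 CPM with Grm6 and 8.70 CPM without it. Fibroblast-like cells had 80.4 ± 48.5 CPM (SD, n = 6), Müller glia 46.5 ± 9.34 CPM (SD, n = 9) and RPE cells 3.07 ± 2.36 CPM (SD, n = 7). It did not pass the filter in RPE, with 39 UMIs, and its fitted level was 18.1-fold higher in fibroblast-like cells (higher in 6 of 6 mice) and 11.4-fold higher in Müller glia (higher in 6 of 7 mice, with 1 undetermined), a log2 difference of RPE of -3.51 that was -4.14 without dKO mouse 6.

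Adamtsl4 went the other way and was high in pigmented cells. The 29 choroidal melanocytes, summed over mice, stood at 99.5 CPM and RPE cells at 71.0 CPM. RPE cells held 28.3% of its UMIs, and by mouse it stood at 87.5, 82.6 and 71.5 CPM in control and 65.0, 212, 45.2 and 61.0 CPM in dKO mice 6, 7, 8 and 9, the 212 CPM of mouse 7 resting on 8 UMIs. It was 13.1-fold higher in RPE than in Müller glia (adjusted p = 1.48e-13) and 1.78-fold higher than in fibroblast-like cells (adjusted p = 9.82e-04), in every mouse compared. In endothelial cells, where it did not pass the filter, the fitted level was 6.42-fold lower than in RPE. In dKO RPE it had a log2 difference of -0.37 (SE 0.24, adjusted p = 0.999879), and -0.47 without mouse 7.

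In Müller glia Adamtsl4 was low in all mice. Control mice 1 to 4 had 5.53, 5.26, 3.32 and 2.86 CPM and dKO mice 5 to 9 had 6.53, 7.08, 7.71, 8.61 and 6.95 CPM. As counted the groups did not overlap, as for 0.999% of the 13013 genes tested there. The counts were 1 to 26 UMIs per control mouse and 3 to 51 per dKO mouse. Control mouse 4 held the 1 UMI, and 3 UMIs there would come to 8.57 CPM, so its place below the dKO mice is not settled. The log2 difference of 0.68 (SE 0.25) did not pass across all genes (adjusted p = 0.999985).

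Fbn1, the major fibrillin of adult tissue, was high in fibroblast-like cells, at 1387 ± 375 CPM (SD, n = 6), and in RPE cells, at 634 ± 99.1 CPM (SD, n = 7). An Fbn1 UMI was seen in 92.1% of RPE cells and in 3.64% of rods. Fbn1 was 27.3-fold higher in RPE than in Müller glia (adjusted p = 2.96e-16), 13.5-fold higher than in endothelial cells (adjusted p = 8.43e-08) and 1.84-fold lower than in fibroblast-like cells (adjusted p = 7.74e-05), in all mice compared. Pericytes, where it did not pass the filter, held 24 UMIs in the 6 mice compared, and the fitted level was 34.1-fold higher in RPE.

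A neuronal type also carried Fbn1. Bipolar cells stood at 177 ± 21.4 CPM (SD, n = 9) and held 26.0% of its UMIs, with 264 CPM in cells low in Prkca with Grm6, 138 CPM in cells low in both and 87.1 CPM in cells with high Prkca. In RPE the control mice had 595, 602 and 630 CPM and the dKO mice 616, 477, 759 and 761 CPM. The dKO values lay on both sides of the controls, and the log2 difference was 0.13 (SE 0.23, adjusted p = 0.999879).

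Fbn2, the fibrillin better known from development, was almost absent from the RPE. Fibroblast-like cells had 301 to 517 CPM by mouse, and 63.5% of them had a UMI beside 0.649% of rods, while all RPE cells together held 13 UMIs. It passed the filter against RPE only through the fibroblast-like cells, and the ratio of summed levels there was 366 (95% exact counting interval 214 to 690). In pericytes no Fbn2 UMI was counted in the 5 mice compared. A floor of 3 UMIs over the group would put fibroblast-like cells 123-fold higher than pericytes, which is not a lower bound. The exact counting interval of the ratio of summed levels starts at 99.8. Müller glia had 6.28 ± 2.72 CPM (SD, n = 9). Ltbp2 sat in still fewer cells. For this gene, 34 of 364 fibroblast-like cells held all 156 of that type's UMIs, up to 61 in 1 cell, and the type stood at 34.8 ± 27.6 CPM (SD, n = 6). Among the other gated types with at least 3 Ltbp2 UMIs, the summed level was at or below 2.05 CPM. Pericytes had 2 UMIs, endothelial cells had 1, and astrocytes, microglia and choroidal melanocytes had 0, where 3 UMIs would come to 3.23, 5.96 and 9.63 CPM. RPE cells held 5 Ltbp2 UMIs in all, and the ratio of summed levels between fibroblast-like cells and RPE was 104 (95% exact counting interval 43.7 to 326), given as a description. Of the 5 UMIs, 4 came from dKO mouse 6, and the fitted log2 difference of RPE was -5.91, -7.10 without that mouse and -4.77 with the fibroblast-like gate without collagens.

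Fbln5, a fibulin needed for elastic fibre assembly, was highest in choroidal melanocytes, at 286 CPM in 29 cells summed over mice, and was also found in RPE, fibroblast-like and a few endothelial cells. RPE cells held 30.3% of its UMIs, and by mouse it stood at 52.4, 40.3 and 55.1 CPM in control and 49.4, 26.5, 23.2 and 43.1 CPM in dKO mice 6 to 9. The groups overlapped, with a log2 difference of -0.37 (SE 0.26, adjusted p = 0.999879). Fbln5 was 8.53-fold higher in RPE than in Müller glia (adjusted p = 7.56e-12) and 1.45-fold lower than in fibroblast-like cells (adjusted p = 0.0202), a call that did not hold without dKO mouse 8 (adjusted p = 0.0879) or without the filter on low counts (0.138). Pericytes held 1 Fbln5 UMI in the 6 mice compared, and the ratio of summed levels of RPE over pericytes was 44.8 (95% exact counting interval 7.99 to 1774).

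In endothelial cells Fbln5 sat in few cells. Only 27 of 205 cells had a UMI, and the 20 richest held 98.0% of them. By mouse it stood at 45.3, 0 and 11.9 CPM in control and 3.05, 237, 43.5 and 14.2 CPM in dKO mice 6 to 9. The dKO mean of 74.3 ± 109 CPM (SD, n = 4) against 19.1 ± 23.5 CPM (SD, n = 3) thus came largely from mouse 7. The log2 difference of 1.87 (SE 1.23) did not pass (adjusted p = 0.959) and was 3.62 without control mouse 1. Left out by the minimum of cells, dKO mouse 5 stood at 292 CPM (72 UMIs in 3 cells) and control mouse 4 had 0 UMIs in 5 cells. With no minimum of cells the log2 difference was 2.56 (adjusted p = 0.925). Mice 4, 5 and 7 are those with Y-linked RNA. RPE against endothelial cells did not pass for Fbln5 either, and its direction depended on the measure. The mean over mice was 41.5 CPM in RPE and 50.6 CPM in endothelial cells, and the ratio of summed levels of RPE over endothelial cells was 0.544 (95% exact counting interval 0.475 to 0.622), while 5 of 7 mice were higher in RPE. The fitted level with the mouse as a block was 2.003-fold higher in RPE (adjusted p = 0.0725, and a log2 difference of 0.38 without dKO mouse 6), and without the block the log2 difference was -0.18. The fit passed as higher in RPE without dKO mouse 7 (adjusted p = 0.0142) or dKO mouse 8 (0.0234), with the stricter gate (0.0141) and without the filter on low counts (2.19e-04).

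Efemp1, the other fibulin, was highest in Müller glia among the gated types. Müller glia had 403 ± 28.7 CPM (SD, n = 9), from 361 to 454 CPM by mouse, and 53.0% of its UMIs, fibroblast-like cells had 228 ± 85.3 CPM (SD, n = 6) and RPE cells 7.40 ± 5.94 CPM (SD, n = 7). It was 40.05-fold higher in Müller glia than in RPE (adjusted p = 6.71e-15, higher in 7 of 7 mice, log2 difference of RPE -5.32, and -6.06 without dKO mouse 6) and 23.5-fold higher in fibroblast-like cells (adjusted p = 2.84e-10, higher in 6 of 6 mice). In RPE it stood at 6.64, 5.76 and 3.45 CPM in control and 17.1, 0, 5.16 and 13.7 CPM in dKO mice 6 to 9. The dKO mice 6 and 9 lay above the controls and mouse 8 among them, the 0 of mouse 7 allows up to 79.6 CPM, and the log2 difference of 1.19 (SE 0.45), the largest in RPE among the 6 genes, did not pass (adjusted p = 0.885).

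Timp3, which encodes the inhibitor stored in Bruch's membrane, was the most abundant of the 10 in RPE, also per length, with 1013 CPM per kilobase of exon against 53.0 for Fbn1 and 13.5 for Adamtsl4. RPE cells held 51.3% of its 181970 UMIs and stood at 7857 ± 1361 CPM (SD, n = 7). It was 3.79-fold higher in RPE than in fibroblast-like cells (adjusted p = 2.86e-08), 5.42-fold higher than in endothelial cells (adjusted p = 2.83e-10), 8.27-fold higher than in Müller glia (adjusted p = 2.03e-13) and 8.36-fold higher than in pericytes (adjusted p = 2.68e-12), in every mouse compared. Timp3 lies inside Syn3 on the opposite strand, and whether strand was used in counting is not given in the sources used here. Control RPE had 10132, 7591 and 7750 CPM and dKO RPE 6998, 5756, 8108 and 8663 CPM, overlapping values with a log2 difference of -0.24 (SE 0.34, adjusted p = 0.999879).

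**Figure D3:**
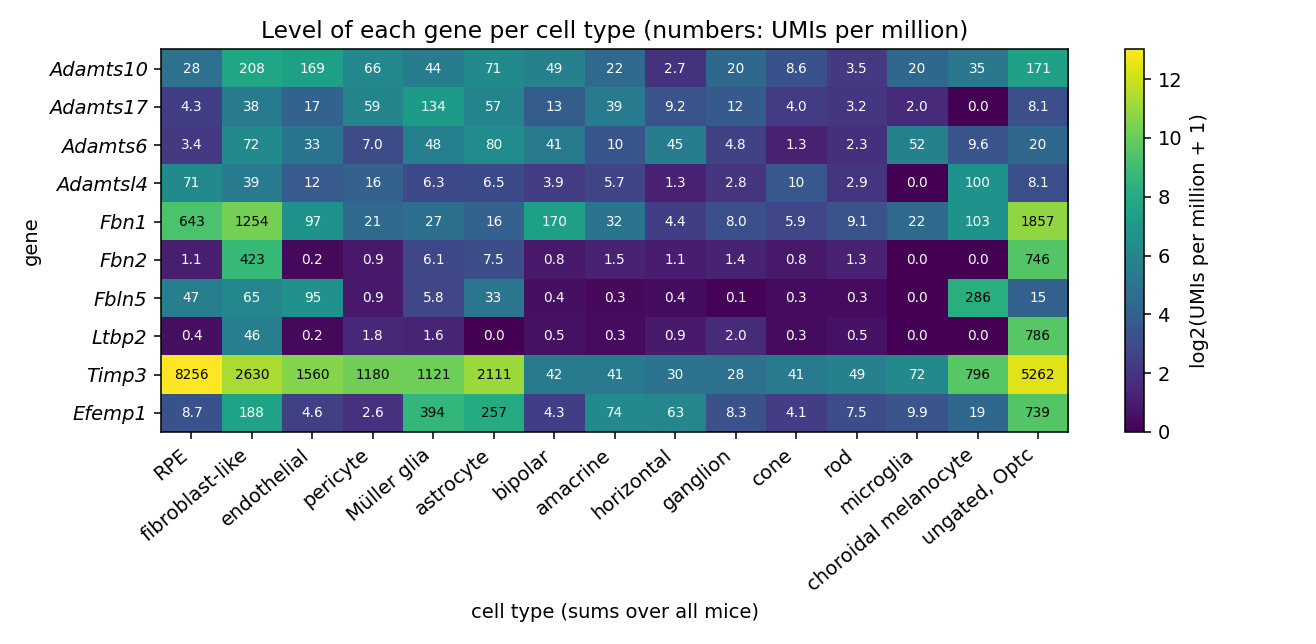
Level of each of the 10 genes (CPM, printed in the cells, colour on a log2 scale with 1 added) in 14 gated types and in 25 ungated cells with Optc, sums over all mice. Timp3, Fbn1, Adamtsl4 and Fbln5 are the 4 highest in the RPE column, Adamts17 leads in Müller glia, and Efemp1 and Fbn2 are highest in the ungated cells, followed by Müller glia and by fibroblast-like cells.

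**Figure D4:**
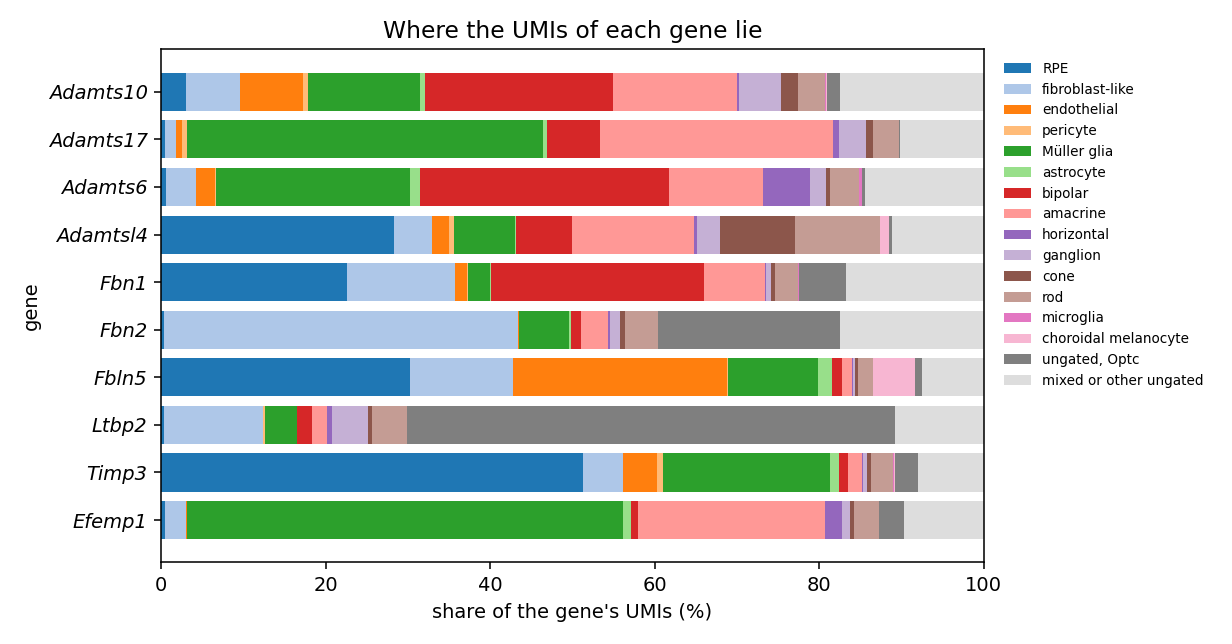
Share of each gene's UMIs (percent) by cell type, sums over all mice, with light grey for mixed or other ungated cells. RPE holds 51.3% of Timp3 and 2.96% of Adamts10, beside 2.88% of the UMIs of all genes, and the ungated cells with Optc hold 59.4% of Ltbp2.

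Counts between types cover genes that passed the filter in both types, without Adamts10 in RPE. Against Müller glia 5 of the 10 genes were tested, of which Fbn1, Adamtsl4, Fbln5 and Timp3 were higher in RPE and Efemp1 lower, where 36% and 29.6% of 9254 genes passed in these directions. Against fibroblast-like cells 5 were tested, with Adamtsl4 and Timp3 higher in RPE and Fbn1, Fbln5 and Efemp1 lower, beside 26.3% and 33% of 5985 genes. Against endothelial cells 3 were tested, with Fbn1 and Timp3 higher in RPE and 0 lower, beside 24.8% and 33.9% of 6216 genes. Against pericytes Timp3 alone was tested and was higher in RPE, beside 20.9% of 3500 genes.

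**Figure D5:**
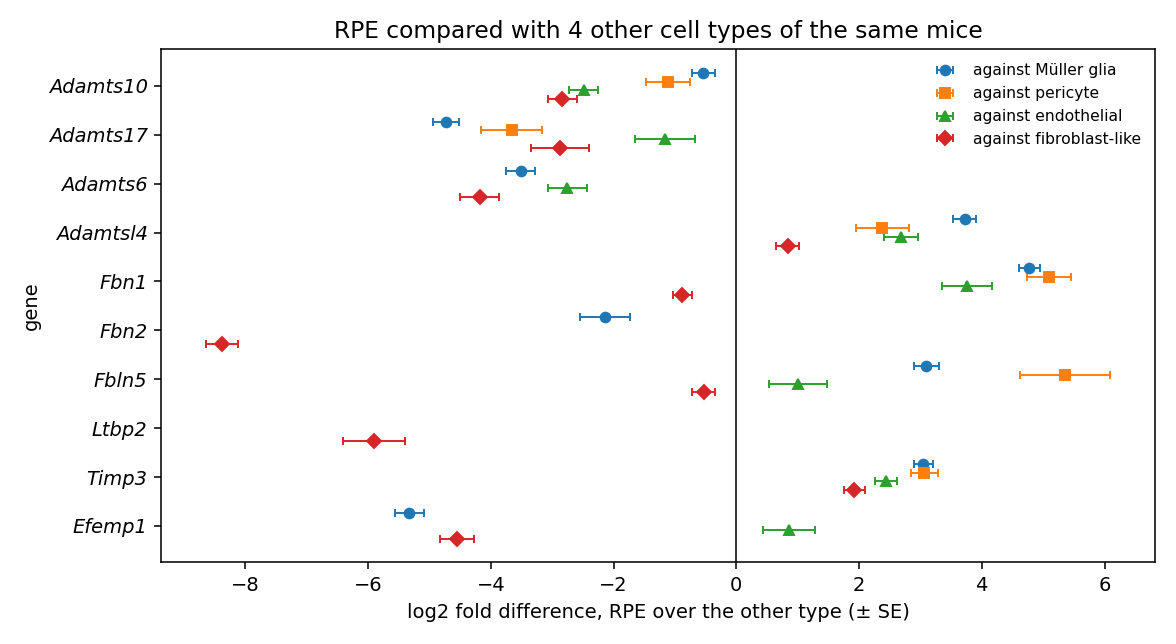
Log2 fold difference of RPE over 4 other types of the same mice for the genes that passed the filter in each pair, with SE bars, from edgeR with the mouse as a block. Adamts10 and the genes that passed the filter through 1 of both types are drawn as descriptions without a test. Adamts10, Adamts17 and Adamts6 lie left of 0 in each pair drawn, and Timp3 and Adamtsl4 lie right of 0 in all 4.

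The vascular and fibroblast-like types also differed among themselves. Between pericytes and endothelial cells 2 of the 10 genes were tested, with Adamts10 lower in pericytes, beside 16.1% of 3620 genes. Timp3 did not pass (adjusted p = 0.0555), and it passed without control mouse 3 (0.0169), with the stricter gate (0.0283) and without the filter on low counts (9.80e-04). Adamts10 was 2.63-fold higher in endothelial cells than in pericytes (adjusted p = 2.94e-04, higher in 6 of 6 mice). Between pericytes and fibroblast-like cells 3 were tested, with Adamts10 (log2 difference of pericytes -2.02, SE 0.25, adjusted p = 8.97e-06) and Timp3 (-1.31, adjusted p = 1.45e-05) lower in pericytes, beside 17.8% of 3608 genes, and Adamts17 not passing (0.47, SE 0.30, adjusted p = 0.235). Another 6 genes passed the filter through fibroblast-like cells and Adamtsl4 did not pass it. For Fbn1 the fitted log2 difference of pericytes was -6.29, and -5.50 with the fibroblast-like gate without collagens.

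Between dKO and control mice none of the genes tested among the 10 passed edgeR's test in any of 9 cell types. The numbers tested were 5 in RPE, 9 in Müller glia, 8 in rods, 6 in cones, 7 in bipolar cells, 8 in amacrine cells, 3 in pericytes, 5 in endothelial cells and 10 in fibroblast-like cells, Adamts10 in RPE being left out. Without the filter on low counts Fbln5 in endothelial cells passed (log2 difference 1.92, adjusted p = 9.95e-06), where all calls rose from 1 to 222, and in RPE they rose from 0 to 63. The background was as low, with 0% of genes called in 8 types and 0.0143% of 6987 genes in endothelial cells. That 1 gene, named after its value was seen, was Zbtb7c, a zinc finger gene with 19.7 ± 3.29 CPM in control and 142 ± 37.8 CPM in dKO mice (SD, n = 3 and 4, log2 difference 2.80, SE 0.29, adjusted p = 0.0199), and it did not pass without any 1 of control mice 1, 2 and 3 or dKO mouse 6 (adjusted p = 0.0845 to 0.262), nor without the 5% of cells with the most UMIs (log2 difference 2.05).

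Counts of 0 stand beside some genes at an unadjusted edgeR p under 0.05, where a share of 0.05 would arise with no difference at all. They were 457 of 9643 genes tested in RPE, 256 of 13013 in Müller glia, 489 of 13615 in rods and 288 of 11389 in cones. Bipolar cells had 284 of 13684, amacrine cells 218 of 14910 and pericytes 137 of 3868. Endothelial cells had 316 of 6987 (with the 1 call) and fibroblast-like cells 273 of 6828. Each of these counts is below that share. DESeq2 called 1 gene each in Müller glia, rods and bipolar cells, 2 in endothelial cells and 0 in the other 5 types.

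Other matrix genes were followed in lists drawn from textbook knowledge. In RPE, 0 of 7 tested microfibril and elastic fibre partners passed between dKO and control, 0 of 6 further ADAMTS and ADAMTS-like genes, 0 of 14 basement membrane genes, 0 of 7 metalloproteases and inhibitors and 0 of 9 genes linked to the RPE side of Bruch's membrane and to drusen. The median log2 differences were -0.13, 0.00, -0.17, 0.18 and 0.02, beside -0.01 over all 9643 genes. Tgfb2, a growth factor held in microfibrils by latent-binding proteins, had 10.7 ± 1.41 CPM in control and 37.4 ± 29.7 CPM in dKO (SD, n = 3 and 4, log2 difference 1.22, SE 0.37, adjusted p = 0.738). Col8a1, a collagen of Bruch's membrane, had 2213 ± 465 and 3240 ± 542 CPM (log2 difference 0.46, SE 0.26, adjusted p = 0.999879), and Nid2, which links basement membrane proteins, had 281 ± 33.7 and 187 ± 64.0 CPM (-0.49, SE 0.22, adjusted p = 0.997).

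The lists were also compared between RPE and fibroblast-like cells, over genes that passed the filter in both. The Bruch's membrane and drusen list was drawn up from genes known from the RPE side, so its direction is no independent result. In this pair 26.3% of the 5985 genes were higher in RPE and 33% lower. Of that list 6 of 6 genes tested were higher in RPE, with a median log2 difference of 3.72 beside -0.07 over all 5985 genes. Of the microfibril and elastic fibre partners 5 of 6 were lower in RPE, with a median of -1.78, of the further ADAMTS and ADAMTS-like genes 6 of 6 lower (median -3.66), of the basement membrane genes 7 of 12 lower and 5 higher (median -2.15), and of the metalloproteases and inhibitors 4 of 5 lower and 1 higher (median -2.50). Loxl4, a lysyl oxidase that crosslinks collagen and elastin, passed the filter through RPE alone (fitted log2 difference 5.95, SE 0.37), and Col8a1 was higher by 2.98 (SE 0.16, adjusted p = 6.46e-11). Eln, which encodes elastin and was named after its values were seen, stood at 1081 CPM in endothelial cells and 1.94 CPM in RPE.

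The genes whose level followed Adamts10 most closely over the 14 gated types, by Pearson's r of log2 CPM with 1 added among 19498 genes, were Zbtb16 (0.94), Col4a2 (0.91), Rhoj (0.91), Cenpb (0.88) and Col4a1 (0.88). Among the other 9 genes r ran from 0.18 for Efemp1 to 0.67 for Fbn1 and 0.69 for Timp3. Of all genes compared, 6118 had a higher r than Efemp1, 538 a higher r than Fbn1 and 405 a higher r than Timp3. These describe 14 points that come from the same mice and differ in depth.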

How the data were processed

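Cells of the retina and RPE from 4 control and 5 dKO mice were profiled by split-pool single-cell RNA-seq. The deposited counts are raw UMIs per gene and cell, made by the authors with split-pipe on GRCm39 and, per the submitters' processing notes, handled in R 4.2.2 and Seurat 4.3.0. The methods describe removal of cells with few genes and of genes in few cells, while the fewest genes in a deposited cell were 579 and the matrix still lists genes found in 0 cells. No normalization precedes the deposited values. Total counts per mouse were 15079143 to 66528160, which sets the precision of low genes, and intervals and floors cover counting error only. Cell types were rebuilt from markers, since the deposited cluster column equals the first-round well in 31089 of 31089 cells.

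A cell was gated where at least 0.5 of a type's markers had a UMI, its mean marker score (each capped at 1) reached 0.3, and no other type reached 0.5 of it. A cell whose RPE markers met both thresholds was not considered as a choroidal melanocyte. These rules left 885 mixed cells, which may hold doublets, and 2178 without a type. No doublet caller was run and free RNA was not removed. Of all cells, 5920 share a barcode with a cell of another of the 8 sublibraries, and 0 barcodes were shared between mice. Counts were summed per mouse and type (at least 10 cells) and tested with edgeR 4.0.16 (R 4.3.3, quasi-likelihood test, TMM, filterByExpr) with Benjamini-Hochberg adjustment over all genes tested and a threshold of 0.05. Types were compared within mice, with the mouse as a block because the same animals give both. SE is the log2 difference divided by the root of F. The labels number the mice but do not say how they were housed or processed, so p-values measure the spread between these mice.

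All 10 genes are named, and of the lists only genes among the 3 per list with the largest difference between dKO and control in RPE could be named, unless said otherwise. Tests between types were planned for all 10 genes; after seeing the data, Adamts10 in RPE and genes that passed the filter in only 1 of both types are given as descriptions. The genes, lists, markers and tests were chosen with earlier results of these data known. Alternatives were DESeq2 1.42.0, scaling by library size alone, no filter, each mouse left out, mice 6 and 7 summed, a stricter gate, a fibroblast-like gate without collagens, removal of the 5% of cells with the most UMIs, RPE cells with the most rod RNA left out, no minimum of cells, no replicate block and, chosen after seeing the data, only the mice with Xist RNA, and each mouse left out of the ungated Optc cells. Tests were checked on simulated data, and the outcome of that check is not given or used for any result here. Gene and 3′-UTR positions come from GENCODE M39 on GRCm39.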

Additional observations from a re-analysis of the deposited data

Results flagged for a closer look

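Of 90 groups of 4 or 5 mice tested for a single sample far from the rest, 5 had one, and chance gives about 1 in 20. Adamtsl4 in RPE cells of dKO mouse 7 stood at 212 CPM, from 8 UMIs, against 45.2 to 65.0 CPM in the other dKO mice. Adamts17 in Müller glia of the same mouse stood at 100.3 CPM against 131 to 141 CPM. Fbn2 in Müller glia of dKO mouse 5 stood at 10.9 CPM, from 5 UMIs, against 4.72 to 6.12 CPM. In bipolar cells of control mouse 4, Adamts6 stood at 82.0 CPM against 44.5 to 50.9 CPM in the other control mice, and Efemp1 at 0 CPM against 3.67 to 4.35 CPM, where 0 UMIs of 536789 allow up to 5.59 CPM. These 3 mice are those with Y-linked RNA and a high share of rods.

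A signal outside the comparisons came from cells that no gate took. Of 44 cells with at least 3 UMIs of Optc, which encodes opticin, 25 were ungated and the others were gated or called mixed. In the 25 ungated cells, Fbn1 stood at 1857 CPM, Ltbp2 at 786 CPM, Fbn2 at 746 CPM and Adamts10 at 171 CPM. Ltbp2 rested largely on the 5 such cells of control mouse 2, and without that mouse it stood at 482 CPM.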

How the results depend on the processing

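Without the filter on low counts, edgeR called 63 genes between dKO and control in RPE, 2 in Müller glia, 40 in bipolar cells, 43 in cones, 222 in endothelial cells, 68 in fibroblast-like cells and 11 in pericytes. DESeq2 called 1 in Müller glia, 1 in bipolar cells, 1 in rods and 2 in endothelial cells. With no minimum of cells there were 8 in RPE and 0 in endothelial cells, with mice 6 and 7 summed 0 in endothelial cells, without the top 5% of cells 0 in endothelial cells, and with only the mice with Xist RNA 1 in Müller glia, 1 in cones and 2 in pericytes. Leaving out single mice, the counts ran from 0 to 12 in RPE, 0 to 3 in pericytes, 0 to 2 in endothelial cells and 0 to 1 in Müller glia, cones and rods. Where this left 1 control mouse of pericytes, that mouse is assumed to vary like the others. Fbln5 in endothelial cells passed without the filter (log2 difference 1.92, adjusted p = 9.95e-06), and Adamts1 in RPE passed without control mouse 2 (2.53, adjusted p = 0.0318). The cause was not tested.

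In RPE the sign turned for Fbn1 with no minimum of cells (-0.071), for Loxl4 (0.023) and Adamts9 (0.043) without control mouse 3, for Adamts1 (-0.17) and Hspg2 (0.058) without the top 5% of cells, and for Mmp16 with DESeq2 (-0.14), without control mouse 1 (-0.21), without control mouse 3 (-0.25) and without the top 5% of cells (-0.00806). None of these passed the test. Over all single mice left out, Loxl4 ran from -1.0045 to 0.023, Adamts9 from -0.85 to 0.043 and Mmp16 from -0.25 to 1.43. Adamts10 in RPE stayed below control under each alternative run, from -1.58 to -0.73.

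No paired analysis was possible because control and dKO mice are not matched to each other in the labels. Between types the mouse is a replicate block. Without the replicate block Fbln5 in RPE against endothelial cells turned to -0.18 (adjusted p = 0.809). It changed no other call of the genes tested. Over all settings, 212 values of the genes tested between types kept direction and call, 2 lost the call, 7 gained it and 1 turned. Scaling by library size moved the median log2 difference over all genes to -0.30 in RPE against Müller glia and against pericytes, so small differences there are relative to it. Depth limits the low genes, and a count of 0 in the RPE cells of dKO mouse 7 allows up to 79.6 CPM.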

Other observations

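The 25 ungated cells with at least 3 Optc UMIs, a rule chosen after seeing the data and given no test or cell type name, came from all 9 mice, with 1 to 6 cells per mouse. Beside Optc, their leading genes included Fbln1, Ltbp2 and Vcan. They held 59.4% of all Ltbp2 UMIs and 22.2% of all Fbn2 UMIs in the matrix. Of their 775 Ltbp2 UMIs, 441 came from the 5 cells of control mouse 2. Timp3 stood at 5262 CPM (95% exact Poisson interval 5119 to 5407), Fbn1 at 1857 CPM (1773 to 1944), Efemp1 at 739 CPM (686 to 795) and Adamts10 at 171 CPM (147 to 199), intervals that cover counting error only. Adamtsl4, by contrast, had 8 UMIs there.

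Small gated types, given as sums over all mice with the same kind of interval, also carried some of the genes. In 29 choroidal melanocytes Fbln5 stood at 286 CPM (229 to 352) and Adamtsl4 at 99.5 CPM (67.6 to 141). With the stricter gate, which placed 20 cells in this type, Fbln5 stood at 411 CPM, outside that interval. In 43 astrocytes Timp3 stood at 2111 CPM (2019 to 2206), Efemp1 at 257 CPM (225 to 292), Adamts6 at 79.6 CPM (62.5 to 99.9) and Adamts10 at 71.0 CPM (54.9 to 90.3). Timp3 left its interval with the stricter gate (2260 CPM) and without the 5% of cells with the most UMIs (2275 CPM). In both types Ltbp2 was at 0 UMIs.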
